A study of Mus musculus with 7 samples.

Results

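Splicing events were described for 3 mouse genes that act on tRNA or on small nucleolar RNA. They are the events listed under Elp3Ccser2, Trnau1ap and Znhit6. Together they make up 3 of the 278 listed events and 3 of the 228 gene names, with 1 event for each gene. The genes were chosen by their function from a table that the authors had already selected on the same comparison, since each row of the authors' deposited table has a corrected DRIMSeq p below 0.1. They were proposed with the differences between the groups known. The differences below are therefore a description, and no test of them is offered as evidence.

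The RNA came from epithelial tissue of the incisor cervical loop, which houses the dental epithelial stem cells of the continuously growing mouse incisor. All 7 libraries carry the genotype K14CreER;Srsf1fl/fl and came from mice of 8 to 10 weeks. In this model the keratin 14 promoter drives a Cre recombinase that acts after tamoxifen, and Cre then deletes the loxP-flanked part of Srsf1, a gene for a splicing factor that binds purine-rich exon sequence. The 3 control libraries (replicates 1, 2 and 7) had no tamoxifen and the 4 mutant libraries (replicates 3, 4, 5 and 9) had it, so tamoxifen itself and the deletion cannot be told apart. The measurement is percent spliced in (PSI), the percent of the reads at an event that support its inclusion form. The read numbers behind PSI are not in the table, so depth is unknown and no counting interval can be given. The labels do not say whether each library is a separate animal, so the spread between libraries may be partly technical. Since PSI carries no expression level, the tissue could not be checked against its marker genes. In a bulk tissue a splicing change within cells and a change in the mix of cells cannot be told apart.

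These genes serve the RNA side of protein synthesis. Elp3 is the catalytic subunit of Elongator, a complex that starts the chemical modification of uridine at the wobble position of certain tRNA anticodons, which these tRNAs need for efficient decoding. Trnau1ap, also called Secp43, binds the selenocysteine tRNA through RNA recognition motifs and takes part in making selenoproteins. Znhit6, also called BCD1, is a zinc finger HIT protein that helps assemble box C/D small nucleolar ribonucleoproteins (snoRNPs), the particles that guide methylation of ribosomal RNA.

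The regulated sequences are shown first, because each of the 3 events changes which bases of the coding sequence are kept. They were read from the GENCODE M21 transcripts (GRCm38) and are written 5′ to 3′ on the strand of the gene. For Elp3 the coding part of the long first exon is given, from the start codon to the downstream 5′ splice site (chr14:65592925-65593000, minus strand), with the stretch between the alternative 5′ splice sites in capitals.
Elp3 first exon: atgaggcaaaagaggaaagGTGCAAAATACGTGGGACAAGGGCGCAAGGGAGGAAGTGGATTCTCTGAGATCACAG

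For Trnau1ap the cassette exon is given whole (exon 3, chr4:132325946-132326045, minus strand), with each GGA in capitals. The next line shows the end of exon 2 joined directly to exon 4, as in the annotated transcript Trnau1ap-207, with the first stop codon in frame in capitals.
Trnau1ap exon 3: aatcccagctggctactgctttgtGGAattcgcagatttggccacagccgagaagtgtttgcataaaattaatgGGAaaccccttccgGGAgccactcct
Trnau1ap exon 2 to exon 4: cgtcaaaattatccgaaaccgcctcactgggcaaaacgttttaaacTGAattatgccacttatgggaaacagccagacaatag

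For Znhit6 the 5′ splice site of the retained intron is given with its GT in capitals (chr3:145576284-145576313, plus strand). It is followed by the first 150 coding bases, which lie inside the intron (chr3:145576368-145576517), and by the last 150 bases of the intron up to its AG (chr3:145576701-145576850), with GGA and GAAGAA in capitals. The last line is the start of the next exon (chr3:145576851-145576880) with the downstream start codon in capitals.
Znhit6 donor: ggttcgtttgGTaatctctcttattggctt
Znhit6 coding start: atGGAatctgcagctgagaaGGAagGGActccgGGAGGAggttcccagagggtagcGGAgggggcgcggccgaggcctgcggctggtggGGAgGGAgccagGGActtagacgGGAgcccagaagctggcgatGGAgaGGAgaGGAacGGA
Znhit6 intron end: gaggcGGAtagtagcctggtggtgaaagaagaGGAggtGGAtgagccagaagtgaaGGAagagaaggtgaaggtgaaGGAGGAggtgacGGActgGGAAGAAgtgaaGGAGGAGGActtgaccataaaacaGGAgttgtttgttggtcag
Znhit6 next exon: aacgtaaaggaagagcaagtgATGgatgca

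Mutant and control libraries were compared to ask how splice sites of these genes are used after the Srsf1 deletion is induced. The targeted gene was read first. Its listed event, a junction from exon 1 of Srsf1 to an alternative last exon beyond the annotated end of the gene, had PSI values of 5.83%, 8.00% and 10.07% in control libraries 1, 2 and 7. In mutant libraries 3, 4, 5 and 9 it had 65.60%, 44.74%, 85.52% and 55.83%. All 4 mutant libraries lay above the 3 controls, so the groups separated at the targeted gene, although this event measures neither the share of deleted alleles nor the level of Srsf1 RNA.

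In all 3 genes the inclusion form was the major form in the controls and was less used in the mutants. By median PSI the difference was −40.3 points in Elp3, −30.1 points in Znhit6 and −22.7 points in Trnau1ap. Control and mutant libraries did not overlap in any of the 3 events, and neither did they in 95.7% of the listed events. In the limma fit over the whole table, 3 of 3 member events passed an adjusted p of 0.05, as did 266 of the 278 listed events (95.7%). All 3 were lower in the mutant, where 78.8% of the listed events passed and were lower. Nothing is read from these counts, because the choice of the genes and of the table used the same contrast. The median absolute difference over all listed events was 13.6 points.

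**Figure D1:**
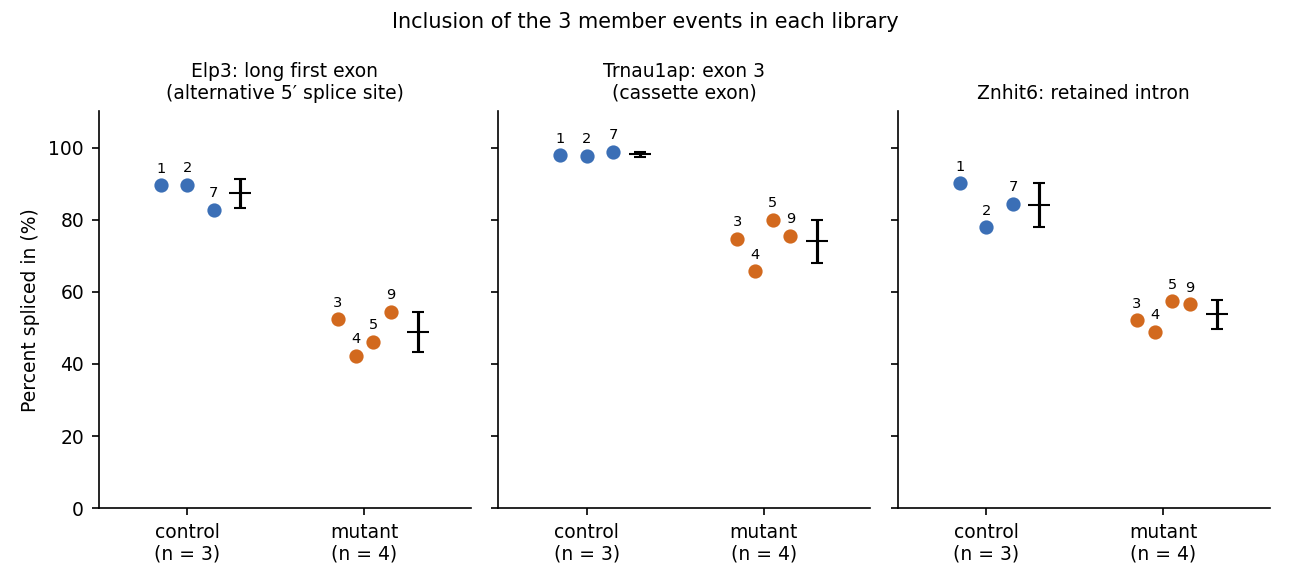
PSI in percent (y axis) of the 3 events in each library. Points are libraries with their replicate number (control, n = 3, blue; mutant, n = 4, orange), and black bars are the mean ± SD. In each panel all 4 mutant points lie below all 3 control points, with the widest gap (28.3 points) for Elp3.

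Elp3 had the largest difference of the 3. The event is listed under a joined name, but both of its junctions lie in Elp3 (ENSMUSG00000022031.6, chromosome 14, 65530449 to 65593075, minus strand), and Ccser2 ends 28.6 Mb away on the same chromosome. The 5′ splice sites lie 57 nt apart in the first coding exon and are joined to the same exon 2. PSI counts the downstream site, which keeps the 57 nt at 65592925 to 65592981. Protein-coding transcripts are annotated for both forms (Elp3-201 and Elp3-203). Control libraries 1, 2 and 7 used the downstream site in 89.55%, 89.66% and 82.76% of reads. Mutant libraries 3, 4, 5 and 9 used it in 52.42%, 42.31%, 46.08% and 54.43%. Control 7 was the lowest control, and it still lay 28.3 points above mutant 9, the highest mutant. The means were 87.3% ± 3.95 (SD, n = 3) and 48.8% ± 5.61 (SD, n = 4), a difference of −38.5 points (SE 3.42 from limma). The upstream site, seen in a median of 10.4% of reads in the controls, was thus seen in 50.8% in the mutants, 4.86 times as often. For Elp3 the authors' deposited table gives a corrected p of 8.85e-10 from DRIMSeq, the value used for selection, and of 0.345 from JuncBASE. The header of the latter names no tool, and it was read as JuncBASE here and for the other genes.

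The 57 nt are 19 whole codons, so the frame of Elp3 is kept in both forms. The segment follows the first 19 coding bases and so adds residues close to the amino terminus. The reading frame runs for 566 codons with the segment and for 547 codons without it, and ends at the same stop codon. Of the annotated Elp3 transcripts, 1 of 3 holds the segment. The upstream site begins its intron with GT, the first letters in capitals in the sequence above. The intron bases of the downstream site were not analysed here.

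Znhit6 had a retained intron that overlaps its coding start. The gene (ENSMUSG00000074182.8) lies on chromosome 3 from 145576205 to 145604795, plus strand, and the intron spans 557 nt from 145576294 to 145576850. Retention is counted from reads across its exon–intron boundaries and removal from 1 junction. Control libraries 1, 2 and 7 retained it in 90.16%, 77.94% and 84.42% of reads. Mutant libraries 3, 4, 5 and 9 retained it in 52.05%, 48.94%, 57.33% and 56.58%. Control 2 was the lowest control and lay 20.6 points above mutant 5, the highest mutant. The controls were spread more widely here (range 12.2 points) than the mutants (8.39 points). The means were 84.2% ± 6.11 (SD, n = 3) and 53.7% ± 3.95 (SD, n = 4), a difference of −30.4 points (SE 3.37 from limma). Removal of the intron was thus seen in a median of 15.6% of reads in the controls and 45.7% in the mutants, 2.93 times as often. For Znhit6 the authors' deposited table gives a corrected p of 7.91e-05 from DRIMSeq, the value used for selection, and of 1 from JuncBASE.

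In Znhit6 the retained form, as in Znhit6-201, has a longer reading frame than the protein-coding transcript without the intron, Znhit6-206. The start codon of the transcript Znhit6-201, in which the sequence is exonic, lies at 145576368, after 74 nt of the intron. The remaining 483 nt of the intron are coding, as 161 codons with no stop. When the intron is removed, as in Znhit6-206, that start codon goes with it, and the annotated start codon is the one at 145576872, which lies 504 nt downstream in the same frame. The reading frame is then 292 codons in place of 460, that is, 168 codons shorter at the amino terminus, with the same stop codon. The first pair of cysteine codons spaced as in a zinc finger, with 2 codons between them, is codon 211 of the longer frame and codon 43 of the shorter, so both frames hold it. Of the 7 annotated transcripts, 1 holds the whole intron as exon and 2 remove exactly this intron. Those that remove it are Znhit6-206 and Znhit6-205, which M21 classes as subject to nonsense-mediated decay. That pathway degrades mRNAs with an early stop codon. The frame of Znhit6-205 was not computed, and removal reads do not tell it from Znhit6-206. Another 3 have first exons that end 9 nt before, 66 nt after and 125 nt after this 5′ splice site. Their junctions are not listed for the event, so PSI does not count them as removal. The forms whose first exon ends after this site may cross the 5′ exon–intron boundary and so may add reads to retention. Unspliced precursor RNA is counted as retention and cannot be told apart from the mature Znhit6-201 form.

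Trnau1ap had the smallest difference of the 3 and the tightest controls. The gene (ENSMUSG00000028898.15) lies on chromosome 4 from 132311763 to 132329538, minus strand, and the event is the 100-nt coding exon 3. Control libraries 1, 2 and 7 included it in 97.87%, 97.67% and 98.80% of reads. Mutant libraries 3, 4, 5 and 9 included it in 74.65%, 65.71%, 80.00% and 75.61%. All 3 controls lay within 1.13 points of each other, whereas the mutants covered 14.3 points, and mutant 5, the highest, was 17.7 points below the lowest control. The means were 98.1% ± 0.603 (SD, n = 3) and 74.0% ± 5.99 (SD, n = 4), a difference of −24.1 points (SE 3.23 from limma). Skipping was seen in a median of 2.13% of reads in the controls and 24.9% in the mutants. This is 11.7 times as often, the highest ratio of the 3 genes, and its controls had the lowest skipping. For Trnau1ap the authors' deposited table gives a corrected p of 1.43e-06 from DRIMSeq, the value used for selection, and of 0.217 from JuncBASE.

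Exon 3 of Trnau1ap is not a whole number of codons, so its loss shifts the frame unless another exon is lost with it. The table counts 4 exclusion junctions together, and PSI does not say how the skipped reads divide among them. It also counts 4 inclusion junctions together, so inclusion reads do not all stand for the 287-codon frame of Trnau1ap-201. With exon 3 followed by the additional exon, as in Trnau1ap-211, the frame stops after 86 codons, and with exon 1 joined to exon 3, as in Trnau1ap-206, after 30 codons. When exon 2 is joined to exon 4, the frame stops after 47 codons in place of 287, at the TGA in capitals above, with 5 exon junctions downstream. The annotated transcript with that junction, Trnau1ap-207, is classed in M21 as subject to nonsense-mediated decay, the pathway that degrades mRNAs with an early stop codon. Trnau1ap-211 and Trnau1ap-204, which hold inclusion junctions, are classed in the same way, so this class is not particular to skipping. When exon 1 is joined to exon 4, as in Trnau1ap-202, exons 2 and 3 are lost together. They sum to 198 nt, or 66 codons, and the frame is kept at 221 codons. The other exclusion junctions enter an additional exon of 138 nt (132325352 to 132325489) that Trnau1ap-211 also holds, and the frame then stops after 93 codons from exon 2 or 20 codons from exon 1. These frames assume the remaining exons of Trnau1ap-201. Of the 8 junctions listed for the event, 6 are introns of M21, and the 2 that are not are the skipping junctions into the additional exon.

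**Figure D2:**
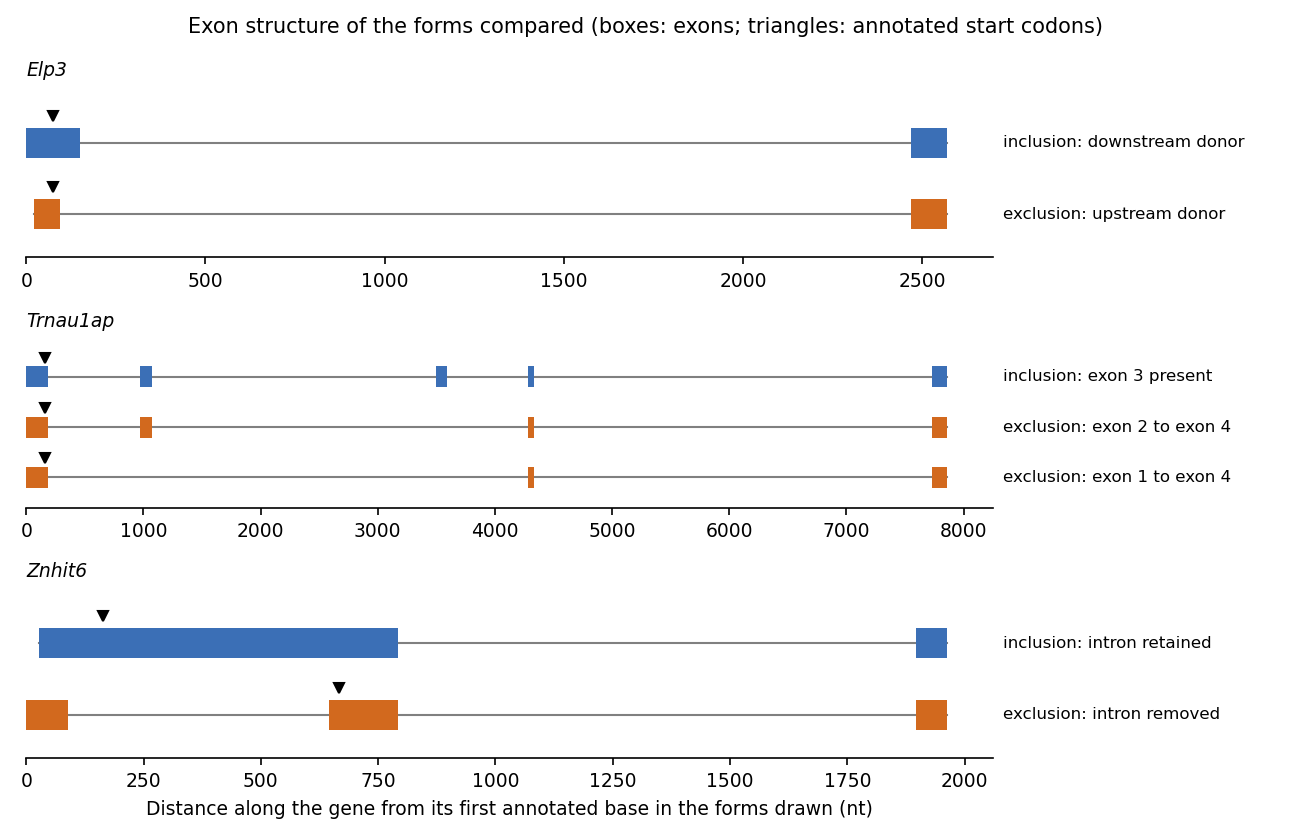
Exons (boxes, to scale within each panel) of the forms compared, by distance in nt along each gene (x axis), with triangles at the annotated start codons. The skipping junctions of Trnau1ap into the additional exon are not drawn. Blue forms count as inclusion and orange forms as exclusion. In Znhit6 the start codon moves 504 nt downstream when the 557-nt intron is removed, while in Elp3 and Trnau1ap it stays in place.

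**Figure D3:**
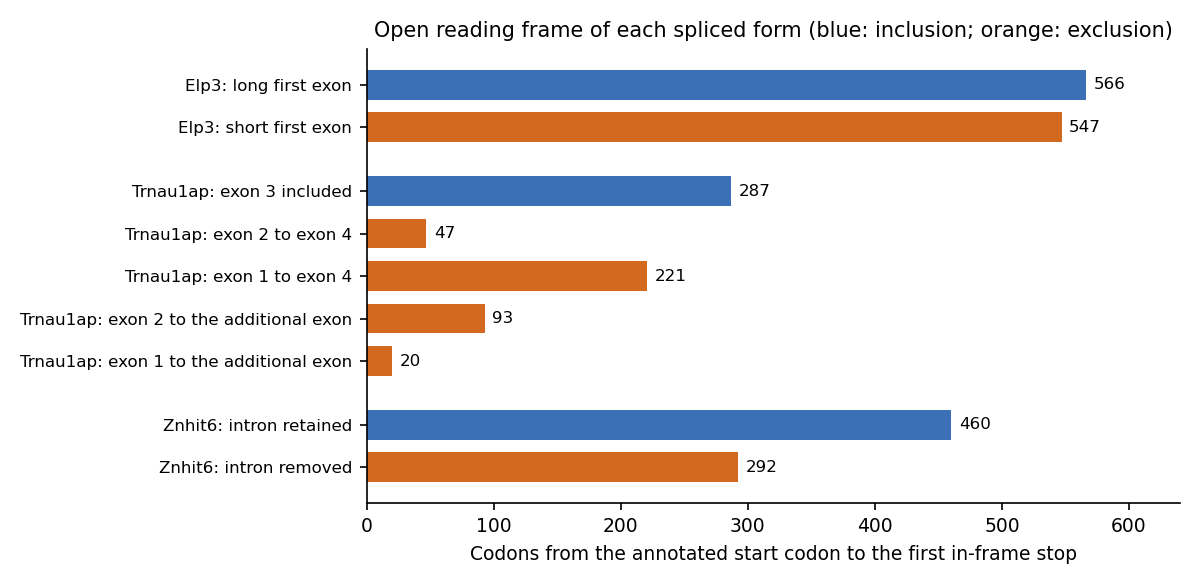
Codons from the annotated start codon to the first in-frame stop (x axis) for each form (blue for inclusion, orange for exclusion), computed from the transcript sequences. The exclusion form is 19 codons shorter in Elp3 and 168 codons shorter in Znhit6, and in Trnau1ap the exclusion frames range from 20 to 221 codons against 287 for the one inclusion frame drawn. The Trnau1ap inclusion frames of 86 and 30 codons are not drawn.

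The mutant libraries took the same order in Trnau1ap and Znhit6 (5, 9, 3 and 4 from high to low) and another in Elp3 (9, 3, 5 and 4). Mutant 4 had the lowest PSI in each of them, at 42.31% in Elp3, 65.71% in Trnau1ap and 48.94% in Znhit6. It had the lowest PSI of the 4 mutants at the Srsf1 event too, 44.74%, but that event was higher in the mutants than in the controls. Mutant 4 thus lay nearest to the controls at Srsf1 and farthest from them in Elp3, Trnau1ap and Znhit6. Mutant 5 had the highest PSI at the Srsf1 event, 85.52%, which was the farthest from the controls. It also had the highest PSI in Trnau1ap and Znhit6, which was the nearest to the controls there, and the next to lowest in Elp3. With 4 mutant libraries no correlation was computed.

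The segments differ in base composition. Purines made up 68.4% of the Elp3 segment, 69.3% of the Znhit6 intron and 49.0% of Trnau1ap exon 3. GGA, the core of the purine-rich motifs that SRSF1 is known to bind, was counted on the sense strand only, since the RNA is what is bound, and overlapping matches were counted. It occurred 4 times in the Elp3 segment, 41 times in the Znhit6 intron and 3 times in Trnau1ap exon 3. Of the 41 in Znhit6, 40 lie in the coding part. For reference, the first 57, 100 and 557 bases were taken from every internal exon of protein-coding M21 transcripts that is at least that long. Among 166818 exons at 57 bases, 74.2% held GGA, the median was 1, and 4.01% held at least 4. Among 120876 exons at 100 bases, 90.7% held it, with a median of 2, and 41.2% held at least 3. Among 3573 exons at 557 bases, 99.9% held it, with a median of 12, and 0.0840% held at least 41. In GGA count all 3 segments thus lay above the median of these first bases of longer or equally long internal exons, Trnau1ap exon 3 by 1 match. In purine share Trnau1ap exon 3 lay below it. The median share of these exons was 52.6% at 57 bases, 52.0% at 100 and 51.0% at 557. A share at least as high as in the segment was found in 4.03% of exons for Elp3, 69.5% for Trnau1ap and 0.476% for Znhit6.

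The longer motifs were fewer. GGAGGA occurred 1 time in the Elp3 segment and 6 times in the Znhit6 intron. At least 1 match was held by 4.40% and 35.2% of the exons at those lengths, and the share with at least 6 was not computed. Each match of GGAGGA holds 2 matches of GGA, but matches that overlap can share 1 of them. GAAGAA occurred 2 times in the Znhit6 intron, where 37.6% of the exons held at least 1 match and 12.7% at least 2. It was absent from the Elp3 segment, with 6.90% of exons at that length holding it. Trnau1ap exon 3 held neither, against 8.00% of exons for GGAGGA and 10.9% for GAAGAA. A match is a description of the letters and does not show binding.

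Set against the table, Elp3 ranked high for its type. Its difference was the third largest of the 278 in absolute size and the largest of the 8 alternative 5′ splice sites, of which 6 were lower in the mutant. Znhit6 ranked 11 of 278 and was the second largest fall among the 17 retained introns, of which 11 were lower and 6 were higher in the mutant. Only 4 of those 17 introns had a control median above 50%, and all 4 were lower in the mutant. They include AC152939.2 and a joined name that begins with it, so they may not all be separate genes. Among cassette exons, the type with the most events, 121 of the 133 with such a control median were lower too. Nothing is therefore read from the count of introns. Trnau1ap ranked 45 of 278 and 22 of the 173 cassette exons. These ranks rest on the contrast used to choose the genes and are given as a description.

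**Figure D4:**
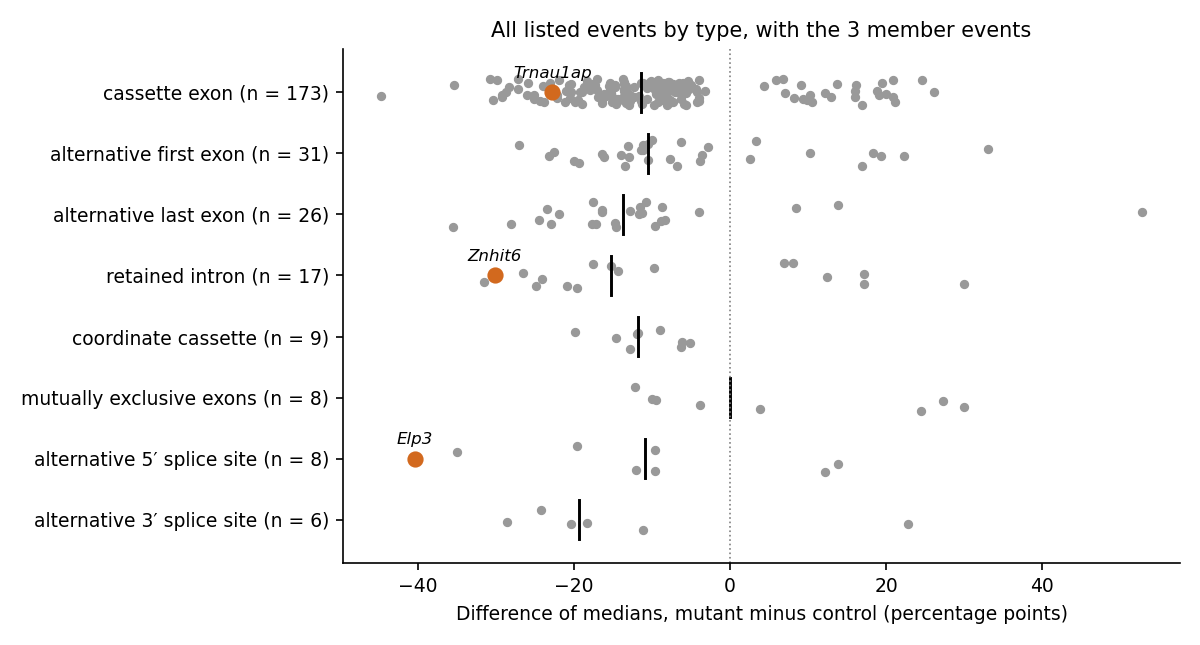
Difference of median PSI, mutant minus control, in percentage points (x axis) for the 278 listed events by type (rows). Grey points are events, vertical bars are the median of the type, and orange points are the 3 events described, at −40.3 (Elp3), −30.1 (Znhit6) and −22.7 points (Trnau1ap), all to the left of the median of their type.

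By the mean absolute difference of PSI over the 7 libraries, Elp3 and Znhit6 were each other's closest event in the table, at 4.91 points. Next to Elp3 came the last exon of Pbdc1, at 7.69 points, and next to Znhit6 a cassette exon of Bclaf1, at 5.28 points. For Trnau1ap the closest were an alternative 3′ splice site of Hnrnpdl, at 2.52 points, and a cassette exon of Cox20, at 2.63 points. This likeness follows mainly from the level in each group and says nothing of shared control.

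Other genes of these pathways were looked for with 5 lists of 142 gene names, in which some genes appear under an older and a newer symbol. The lists cover Elongator and wobble uridine modification (16 names), other tRNA modification and processing (81), selenocysteine tRNA (14), box C/D snoRNPs (22) and box H/ACA snoRNPs (9). By name 4 genes were in the table, and all 4 events passed the limma test and were lower in the mutant, against 78.8% of all listed events. Nothing is read from that count, since the table was selected on this contrast. Of these 4, 3 are the genes described. The other is listed as Nufip1, a partner of box C/D snoRNP assembly, but its junctions lie in Capn7 on chromosome 14 (31369852 to 31370877), 44.7 Mb from Nufip1. In the same way an event under the joined name of Trnt1, the enzyme that adds CCA to tRNA ends, lies in Mlf2, 18.1 Mb from Trnt1. Of the events found by name, therefore, 1 each for the Elongator, selenocysteine tRNA and box C/D lists lay in its own gene, and none did for the other lists. Events under other names were not searched by position, so a gene of these lists could have been missed. Since the table is a selected one, genes without a listed event cannot be called unchanged.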

How the data were processed

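RNA-seq libraries of 3 control and 4 mutant samples were grouped by the sample titles. Per the labels' protocols, libraries were made from total RNA with an Illumina TruSeq kit. The submitters' processing notes name the build mm9 and the tools TopHat, Bowtie, DESeq and SAMtools without versions, and the series text names JuncBASE for the events. The authors deposited PSI as a percent in each library, the group medians and their differences in percentage points, and raw and corrected p-values. The headers mark the DRIMSeq p-values with the letters drim. The other p-values carry no tool name there and were read as from JuncBASE. Recomputed medians matched within 0.01 points. All 7 library columns were used.

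The members, lists and tests were chosen with earlier results of these data known. Named events are all events of the 3 genes, the Srsf1 event, events of the pathway lists, and the 2 events nearest to each member over the libraries. limma 3.58.1 (R 4.3.3) was fitted to PSI of all 278 events, with Benjamini-Hochberg adjustment at 0.05, and gave the SEs and the background shares. It was tested on simulated data. Alternatives were the logit scale, group means, other variance priors, each library left out and 1 event per overlapping group. The labels name no batch, and read depth per event is unknown. Pairs of libraries differed by a median of 1.94 to 2.92 points within controls and 3.32 to 5.89 points within mutants. Each library was counted as a sample, although such differences cannot show that the libraries are separate animals.

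Of 863 junctions, 650 (75.3%) are introns of GENCODE M21 (GRCm38), against 0 after a shift of 1000 bases, so coordinates were read as GRCm38. Reading frames and motifs were computed with Python 3.11.15 from M21 transcripts.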

Additional observations from a re-analysis of the deposited data

How the results depend on the processing

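Each of the 3 differences kept its sign and moved by less than 1 SD between libraries under every alternative run. With means in place of medians they were −38.5 points (Elp3), −30.4 (Znhit6) and −24.1 (Trnau1ap), and on the logit scale, turned back to points, −38.8, −31.1 and −23.9. With each library left out in turn they ranged from −43.5 to −36.9 points in Elp3, from −33.0 to −26.9 in Znhit6 and from −23.2 to −22.3 in Trnau1ap. Under each limma fit run, all 3 events had an adjusted p below 0.05. The number of all listed events that passed, 266 of 278, was 275 on the logit scale, 278 with a trend in the prior variance, 264 with the robust fit, 239 to 266 with a library left out, and 226 of 234 with 1 event per group of overlapping events. No paired analysis was possible because control and mutant libraries share no replicate number. Read numbers per event are unknown, so the precision of a single PSI value cannot be stated.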
